A study of Mus musculus with 12 samples.

Results

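The 36 mitotic cell cycle genes described here encode the cyclins, kinases, checkpoint proteins, centromere proteins, spindle motors and cytokinesis factors that carry a cell through division. They were chosen by name from an array of 65956 mouse transcript clusters, the units in which the array reports a transcript. 35 of the 36 had a cluster annotated with their symbol alone, 1 cluster each, and all 35 were bright enough to be tested. Ccnb1, which encodes cyclin B1, had no such cluster and is not analysed here. RNA came from bone marrow monocytes and macrophages that had been purified magnetically from Rag2-/-gamma c-/- mice on a BALB/c background, a strain without B, T and natural killer cells of its own. MEC1, a human cell line derived from chronic lymphocytic leukemia of B cells, had been given intravenously to the mice with disease. The 4 groups were MEC1 mice at 31 d (13 weeks of age), mice without MEC1 at 31 d (13 weeks), MEC1 mice at 21 d (11 weeks) and mice without MEC1 at 21 d (11 weeks), with 3 mice and 3 arrays in each. Every mouse, with or without MEC1, carried both gene deletions, the disease came from 1 cell line, and the labels name no sham injection for the mice without MEC1, called controls below. The late day was late in the leukemia and the early day early in it, and the question addressed was how the host's monocytes and macrophages changed between them.

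Dividing cells switch these genes on together, late in the cycle. Cyclins A2 and B2 activate the kinase Cdk1 for entry into mitosis, the Aurora and Polo-like kinases build the spindle, and the spindle checkpoint holds back the ubiquitin ligase called the anaphase promoting complex until every chromosome is attached. In the bone marrow the genes are active in red cell precursors, granulocyte and monocyte progenitors and other cycling cells, and they are mostly silent in mature monocytes and macrophages. In quiescent cells the DREAM complex represses many of them, and in cycling cells B-Myb and FoxM1 activate them, largely through a short promoter element named the cell cycle genes homology region (CHR), often with CCAAT boxes bound by NF-Y nearby.

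The promoters of 4 genes that drive mitotic entry and exit are shown. They were picked by name from a short list, without regard to their motifs. All 4 hold both elements, as did 21 of the 31 windows searched. Each window runs 5′ to 3′ on the gene's own strand from 250 bases before to 50 bases after the start, as RefSeq gives it for GRCm38.p6. The windows are chr9:70421505-70421804 (minus strand) for Ccnb2, chr10:69352863-69353162 (minus strand) for Cdk1, chr7:122159185-122159484 (plus strand) for Plk1 and chr4:118437294-118437593 (minus strand) for Cdc20. Capitals mark the CHR, TTTGAA or its reverse complement TTCAAA, and the CCAAT box, CCAAT or its reverse complement ATTGG.
Ccnb2: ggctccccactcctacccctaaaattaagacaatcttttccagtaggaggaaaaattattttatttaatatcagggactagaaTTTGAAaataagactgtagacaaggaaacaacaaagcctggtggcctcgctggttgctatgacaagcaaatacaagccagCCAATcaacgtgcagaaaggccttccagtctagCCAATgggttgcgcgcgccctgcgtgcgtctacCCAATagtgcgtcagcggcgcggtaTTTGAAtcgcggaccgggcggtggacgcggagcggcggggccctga
Cdk1: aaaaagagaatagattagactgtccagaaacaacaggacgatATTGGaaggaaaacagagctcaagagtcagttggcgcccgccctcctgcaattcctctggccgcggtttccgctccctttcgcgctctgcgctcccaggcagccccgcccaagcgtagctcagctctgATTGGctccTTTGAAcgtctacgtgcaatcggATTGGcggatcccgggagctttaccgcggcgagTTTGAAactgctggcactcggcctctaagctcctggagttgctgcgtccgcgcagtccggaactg
Plk1: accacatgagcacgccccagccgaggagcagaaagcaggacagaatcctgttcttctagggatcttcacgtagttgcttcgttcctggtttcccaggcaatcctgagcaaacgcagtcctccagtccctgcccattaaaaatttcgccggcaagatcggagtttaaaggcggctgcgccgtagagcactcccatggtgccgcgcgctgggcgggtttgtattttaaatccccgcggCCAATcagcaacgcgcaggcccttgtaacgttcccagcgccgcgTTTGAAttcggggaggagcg
Cdc20: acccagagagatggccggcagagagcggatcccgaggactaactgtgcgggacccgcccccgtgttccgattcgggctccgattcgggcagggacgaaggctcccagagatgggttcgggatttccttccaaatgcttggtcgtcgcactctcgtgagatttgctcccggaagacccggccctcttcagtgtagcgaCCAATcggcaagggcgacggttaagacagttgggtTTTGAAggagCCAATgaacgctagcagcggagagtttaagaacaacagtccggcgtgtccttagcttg

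A window was given for 31 of the 35 measured genes, and none for Aurkb, Ccna2, Kif20a and Tpx2. A CHR lay in 24 of the 31 windows (77.4%), against 18.1% of the 27025 windows of all genes with one. TTCGAA, a variant of the CHR that reads the same on both strands, lay in 3 windows (9.68%, against 1.57% of all genes), and 25 held a CHR or the variant (80.6%, against 19.4%). CCAAT boxes were found in 22 windows (71.0%, against 37.9%), and 21 held both kinds of element (67.7%, against 7.70%). Both strands were searched, each motif was counted on its own, and where motifs overlapped each was kept. In 23 genes a CHR or its variant began within 50 bases of the start. The 6 genes whose windows held neither form were Birc5, Cenpe, Mad2l1, Melk, Nuf2 and Nusap1. Their median change at 31 d was -1.83 on the log2 scale, beside -1.85 for the 25 with an element and -2.01 for the 4 with no window. These matches describe letters in the windows and are not evidence of binding.

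Probe intensities are given as log2 values throughout, so that a change of -1 is a 2-fold lower signal, and levels of different genes are not compared because probes differ. Arrays of MEC1 mice differed from control arrays as a whole. The 4 hybridisation controls are labelled molecules added to the hybridisation mix at a fixed amount. They averaged 12.57 ± 0.54 in MEC1 mice and 10.62 ± 0.128 in control mice at 31 d (SD, n = 3 each), and 11.92 ± 0.118 in MEC1 mice and 10.81 ± 0.087 in control mice at 21 d. The 4 poly-A controls, which are added to the RNA sample, averaged 8.17 ± 0.419 in MEC1 mice and 7.085 ± 0.678 in control mice at 31 d. At 21 d they averaged 7.74 ± 0.087 in MEC1 mice and 7.10 ± 0.082 in control mice. Each of these differences had an exact permutation p of 0.1, two-sided, the smallest that 3 against 3 mice allow. Of the clusters tested, 22.6% rose and 21.1% fell at 31 d, and 1.83% rose and 2.51% fell at 21 d. MEC1 31 d replicate 3 stood apart from its group, with the lowest level of all 35 mitotic genes and the highest level of the hybridisation controls (13.18, against 12.15 and 12.39 in replicates 1 and 2). Among the labelled cells' own markers, Mertk was below the array median in all arrays of the control groups and of MEC1 mice at 21 d, and the other 10 measured monocyte and macrophage markers were above it in at least 1 array of every group.

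At 31 d all 35 mitotic genes fell in MEC1 mice relative to control mice of the same age (limma, adjusted p from 0.0016 to 0.0429), a direction called in 21.1% of all tested clusters. 32 of the 35 fell at least 2-fold, as did 13.6% of all tested clusters. The median change of the 35 was -1.85, with a range from -2.50 for Kif22 to -0.74 for Kif2c, and the median over all tested clusters was 0.04. In MEC1 mice the signal that remained was between 17.7% and 60.0% of the control level, with a median of 27.7%. The change was negative for 48.1% of all tested clusters and for all 35. In each of the 35 genes every MEC1 array was below every control array, a separation that 28.4% of all tested clusters showed. Arrays of these purified cells also carried signal for markers of other marrow cell types, given below. Fewer dividing cells of any type and less of these RNAs in each cell cannot be told apart.

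The fall was present in all 3 MEC1 mice and differed in depth between them. The median mitotic gene stood at 9.04, 8.74 and 7.53 in the MEC1 mice at 31 d and at 10.17, 10.48 and 10.36 in the control mice. Replicate 3 was the lowest MEC1 array for all 35 genes, and replicates 1 and 2 also lay below every control array for all 35. Without replicate 3, all 35 changes stayed negative with a median of -1.39. Of the 35 genes, 25 passed the test in that fit, where 5371 of 37240 tested clusters fell. Aurka, Birc5, Bub1, Ccnb2, Cdc20, Kif2c, Ndc80, Plk1, Spc25 and Ttk did not pass. For 34 of the 35 genes the spread was larger among MEC1 mice than among control mice. Within its array, the median mitotic gene lay between the percentiles 90.2 and 93.1 of all clusters in MEC1 mice and between 94.8 and 95.0 in control mice.

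**Figure D1:**
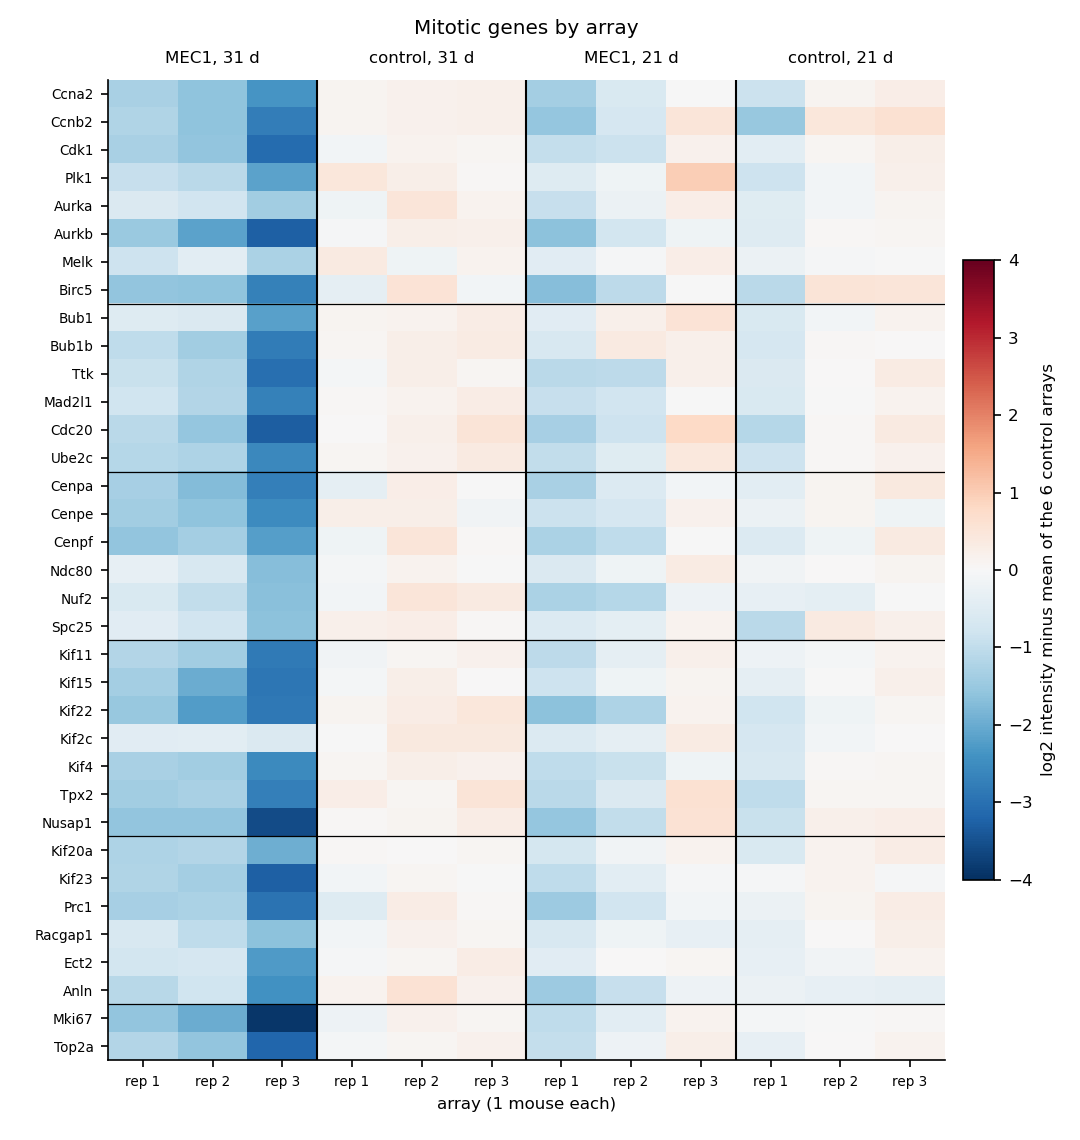
Level of each of the 35 mitotic genes (rows, grouped by role) in each of the 12 arrays (columns), as log2 intensity minus the mean of the gene over the 6 control arrays; blue is lower and red is higher. The 3 MEC1 arrays at 31 d are blue in every row and replicate 3 is the deepest, while MEC1 replicate 3 at 21 d resembles the control arrays.

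The 8 measured cyclins and mitotic kinases fell with a median of -1.95. Aurkb, the kinase of the chromosomal passenger complex that corrects faulty attachments, had 8.75, 8.12 and 6.97 in MEC1 mice and 10.19, 10.49 and 10.45 in control mice at 31 d. It fell by 2.43 (SE 0.445, adjusted p = 0.00254, limma), which left 18.6% of the control signal. Melk, a kinase enriched in cycling and progenitor cells, moved least in this group, by -0.95 (SE 0.246, adjusted p = 0.0121). Its arrays read 5.89, 6.31 and 5.47 in MEC1 mice and 7.10, 6.55 and 6.86 in control mice, and the nearest arrays of the groups were close. Plk1, the Polo-like kinase that matures centrosomes and triggers mitotic entry, had 11.56, 11.40 and 10.33 in MEC1 mice and 12.92, 12.70 and 12.51 in control mice, a change of -1.61 (SE 0.429, adjusted p = 0.0133). The cyclin genes Ccna2 and Ccnb2 changed by -1.91 and -2.01, and their kinase Cdk1 by -2.03. Aurka, the centrosomal Aurora kinase, changed by -1.06, and Birc5, the passenger complex subunit survivin, by -1.99.

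All 6 genes of the spindle checkpoint and the anaphase promoting complex fell, with a median of -1.82. Cdc20, the activator that the checkpoint restrains, had 9.22, 8.73 and 6.98 in MEC1 mice and 10.31, 10.48 and 10.79 in control mice, a change of -2.22 (SE 0.645, adjusted p = 0.0194). The MEC1 arrays were spread over more than 2 log2 units, and all lay below the controls. Bub1, a checkpoint kinase at the kinetochore, had 9.44, 9.37 and 7.79 in MEC1 mice and 10.07, 10.11 and 10.27 in control mice, a change of -1.28 (SE 0.411, adjusted p = 0.0284). Mad2l1, whose product MAD2 binds Cdc20 to delay anaphase, had 11.78, 11.41 and 9.85 in MEC1 mice and 12.61, 12.70 and 12.86 in control mice, a change of -1.71 (SE 0.436, adjusted p = 0.0112). In each of these 3 genes MEC1 replicate 3 was lower than replicates 1 and 2 by more than 1 log2 unit. Bub1b (the checkpoint protein BUBR1), Ttk (the checkpoint kinase MPS1) and Ube2c (the ubiquitin-conjugating enzyme of the complex) changed by -1.94, -1.79 and -1.85.

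Centromere and outer kinetochore genes fell with a median of -1.58 over 6 genes. Cenpe, the kinesin that moves chromosomes to the spindle equator, had 8.14, 7.91 and 7.0 in MEC1 mice and 9.75, 9.76 and 9.37 in control mice, a change of -1.94 (SE 0.322, adjusted p = 0.00161). Cenpa, the histone H3 variant that marks the centromere, had 9.39, 9.00 and 7.98 in MEC1 mice and 10.38, 10.99 and 10.72 in control mice, a change of -1.91 (SE 0.393, adjusted p = 0.00434). For both genes the groups were separated by about 1 log2 unit or more. Ndc80, the microtubule-binding subunit of the outer kinetochore, had 8.90, 8.59 and 7.53 in MEC1 mice and 9.16, 9.37 and 9.20 in control mice, a change of -0.90 (SE 0.324, adjusted p = 0.0429). It had the largest adjusted p of the 35. Nuf2 and Spc25, which sit in the same complex as Ndc80, changed by -1.34 and -1.12, and Cenpf, a kinetochore protein of late G2 and mitosis, by -1.83.

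The 7 spindle motors and assembly factors had the lowest median of the groups with 6 genes or more, -2.10, and also held both the largest and the smallest change of all 35. Kif22, a kinesin that pushes chromosome arms outwards, had 9.08, 8.36 and 7.74 in MEC1 mice and 10.71, 10.91 and 11.06 in control mice, a change of -2.50 (SE 0.448, adjusted p = 0.00229). Kif2c, a kinesin that takes microtubule ends apart, had 6.78, 6.82 and 6.66 in MEC1 mice and 7.21, 7.64 and 7.62 in control mice, a change of -0.74 (SE 0.248, adjusted p = 0.034). Kif2c was also the gene with the smallest spread among the MEC1 mice (SD 0.0833). Kif11, the motor that pushes the spindle poles apart, had 11.56, 11.35 and 9.91 in MEC1 mice and 12.62, 12.83 and 12.93 in control mice, a change of -1.85 (SE 0.407, adjusted p = 0.00575). Kif15, which backs up Kif11, changed by -2.15 and the chromosome-bound kinesin Kif4 by -1.91. Tpx2, an activator of Aurora A, changed by -2.10, and Nusap1, a microtubule-bundling protein, by -2.39.

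Genes of the central spindle and cytokinesis fell with a median of -1.63 over 6 genes. Kif23 and Racgap1 encode the motor and the GTPase-activating subunit of centralspindlin, the complex that marks the division plane. Kif23 had 10.56, 10.41 and 8.52 in MEC1 mice and 11.67, 11.84 and 11.77 in control mice, a change of -1.93 (SE 0.45, adjusted p = 0.00757). Racgap1 had 8.17, 7.80 and 7.15 in MEC1 mice and 8.68, 8.96 and 8.87 in control mice, a change of -1.13 (SE 0.257, adjusted p = 0.00673). The groups did not overlap for either gene. Among the others, Ect2, which activates RhoA at the cleavage site, changed by -1.34, Anln, the scaffold anillin, by -1.74, Prc1, which bundles microtubules between the poles, by -1.78, and the kinesin Kif20a by -1.51.

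Mki67 and Top2a, widely used as proliferation markers, act on the chromosomes themselves. Mki67, whose product Ki-67 coats mitotic chromosomes, had 15.65, 15.25 and 13.32 in MEC1 mice and 17.01, 17.39 and 17.30 in control mice, a change of -2.49 (SE 0.497, adjusted p = 0.00376). Top2a, the topoisomerase that untangles sister DNA, had 11.86, 11.47 and 9.86 in MEC1 mice and 12.95, 13.11 and 13.22 in control mice, a change of -2.03 (SE 0.45, adjusted p = 0.00603). MEC1 replicate 3 was more than 1 log2 unit below the other MEC1 mice for both. Mki67 had the widest spread among MEC1 mice of all 35 genes at 31 d (SD 1.25).

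**Figure D2:**
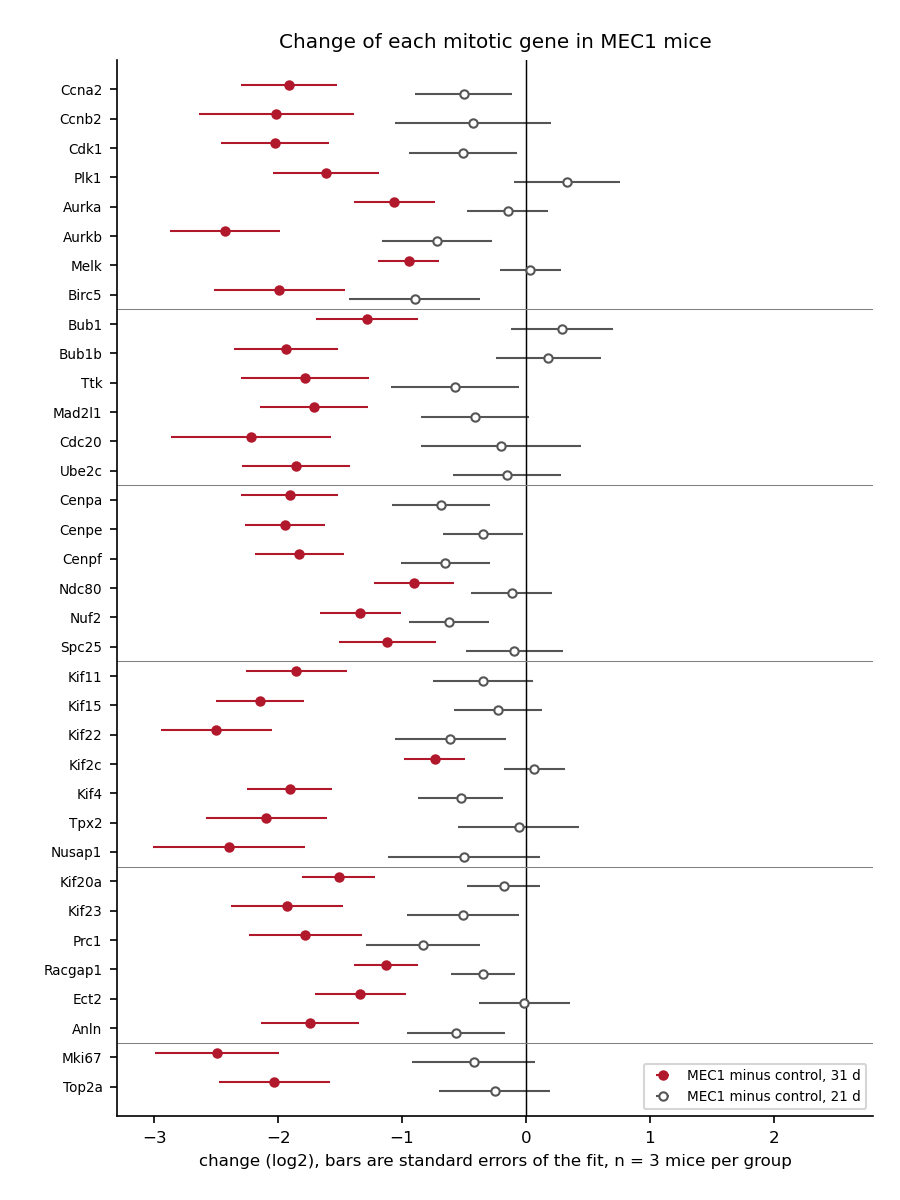
Change of each mitotic gene in MEC1 mice against control mice on the log2 scale (horizontal axis), at 31 d (filled) and at 21 d (open); bars are standard errors of the fit with 3 mice per group, and lines part the role groups. All filled points lie between -2.50 and -0.74, and the open points lie between -0.90 and 0.33.

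The change at 31 d depended on signal level over the whole array, so each gene was set beside the tested clusters within 1 log2 unit of its control mean. The medians of these windows ranged from -1.07 to -0.47, and between 21.2% and 57.9% of their clusters fell. 34 of the 35 genes lay below the median of their own window, by a median difference of -0.87. Mki67 lay furthest below, by -2.02, among 259 clusters of like control level, and Kif22 by -1.44 among 1959. Aurka and Kif2c, at -0.04 and -0.01, were near their windows' medians, and Ndc80 was above its own by 0.06. Melk, with a change of -0.95, lay below its window's median by -0.40. At 21 d the window medians ranged from -0.45 to -0.03, and 18 genes lay below and 17 above them, with a median difference of -0.05. These are descriptions without a test.

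**Figure D3:**
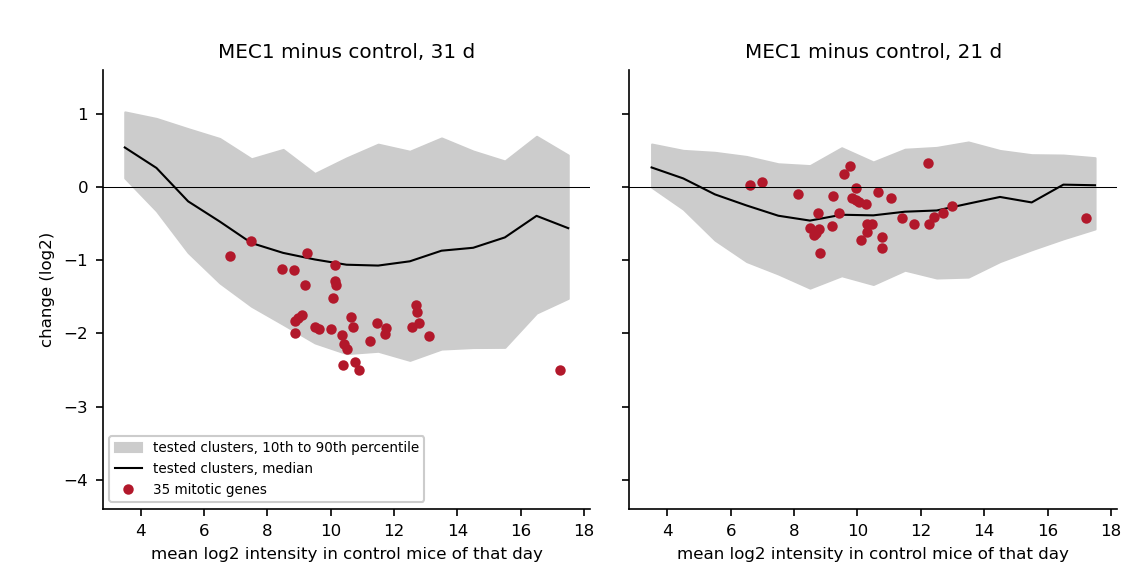
Change in MEC1 mice against control mice (log2, vertical axis) by mean log2 intensity in the control mice of that day (horizontal axis), at 31 d (left) and 21 d (right). The grey band spans the 10th to 90th percentile and the line the median of tested clusters in steps of 1 log2 unit; most of the 35 points lie below the line at 31 d and on both sides of it at 21 d.

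At 21 d none of the 35 genes passed the test in limma (smallest adjusted p = 0.274 for Nuf2), where 2.51% of all tested clusters fell and 1.83% rose. At an unadjusted p under 0.05 there were 0 of the 35, against 23.4% of all tested clusters. The changes had a median of -0.35, beside 0.02 over all tested clusters, and ranged from -0.90 for Birc5 to 0.33 for Plk1. 30 were negative, as were 48.2% of all tested clusters. The MEC1 and control arrays overlapped for every gene, while 13.7% of all tested clusters had every MEC1 array below every control array. Mice of this day differed widely: the median mitotic gene stood at 9.15, 9.75 and 10.45 in MEC1 mice and at 9.72, 10.29 and 10.34 in control mice. MEC1 replicate 1 was the lowest of its group for all 35 genes and replicate 3 the highest for 33. Among controls replicate 1 was the lowest for 33 and replicate 3 the highest for 28. MEC1 replicate 3 lay above the control mean for 29 of the 35 genes. Array weights, which count the arrays that fit their group poorly for less, gave 16 falls at 21 d, and the same setting called 20.1% of all tested clusters lower instead of 2.51%.

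Single genes mirrored the median, with replicate 1 the lowest and replicate 3 the highest of the MEC1 mice. Aurkb had 8.60, 9.52 and 10.08 in MEC1 mice and 9.72, 10.29 and 10.34 in control mice at 21 d, a change of -0.72 (SE 0.445, adjusted p = 0.347, limma). Cdc20 had 8.97, 9.47 and 11.08 in MEC1 mice and 9.14, 10.34 and 10.65 in control mice, a change of -0.20 (SE 0.645, adjusted p = 0.865). Kif22 had 8.97, 9.38 and 10.74 in MEC1 mice and 9.81, 10.43 and 10.68 in control mice, a change of -0.61 (SE 0.448, adjusted p = 0.422). In all 3 genes MEC1 replicates 1 and 2 lay below the control mean, and replicate 3 was within the control range for Aurkb and above it for Cdc20 and Kif22. Plk1 had 11.95, 12.29 and 13.47 in MEC1 mice and 11.66, 12.37 and 12.69 in control mice, a change of 0.33 (SE 0.429, adjusted p = 0.653). Mki67 had 16.22, 16.80 and 17.36 in MEC1 mice and 17.16, 17.21 and 17.28 in control mice, a change of -0.42 (SE 0.497, adjusted p = 0.616). Top2a had 12.08, 12.82 and 13.26 in MEC1 mice and 12.70, 13.06 and 13.16 in control mice, a change of -0.25 (SE 0.45, adjusted p = 0.749). Birc5, the lowest of the 35 at -0.90, had 7.13, 7.78 and 8.82 in MEC1 mice and 7.76, 9.35 and 9.31 in control mice.

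The difference between the days was tested directly. The MEC1 effect at 31 d minus that at 21 d was negative for all 35 genes, with a median of -1.41 and a range from -2.12 for Bub1b to -0.72 for Nuf2. None passed in limma (smallest adjusted p = 0.321 for Kif15), while 22 had an unadjusted p under 0.05, as did 12.9% of all tested clusters. Over all tested clusters 1 passed (0.00269%), so these arrays do not show by that test that the 31 d effect is larger than the 21 d effect. Among MEC1 mice alone, 31 d against 21 d gave a median of -1.23, with all 35 negative and 0 passed (smallest adjusted p = 0.0828 for Kif15), where 0.0886% of all tested clusters fell and 0.137% rose. At an unadjusted p under 0.05 there were 27 of the 35, against 17.3% of all tested clusters. Quantile normalization gave 1 fall there, with 0.164% of all tested clusters fallen. Array weights gave 22 falls there and 6 in the difference between the days, with 11.7% and 2.25% of all tested clusters fallen. Between control mice of 13 and 11 weeks the median was 0.26, with 32 genes positive, 0 passed (smallest adjusted p = 0.806), where 0.00806% of all tested clusters fell. At an unadjusted p under 0.05 there were 0 of the 35, against 6.54% of all tested clusters. These comparisons share arrays with those above.

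Markers of marrow cell types differed in whether they fell with the mitotic genes. Over all tested clusters 21.1% fell and 22.6% rose at 31 d, and 2.51% fell and 1.83% rose at 21 d. Of 16 erythroid markers, genes of red cell precursors, 10 had a cluster of their own, and all 10 fell at 31 d (median -4.36) and 5 at 21 d (median -2.59). Their mean level per array was 5.55, 5.21 and 5.87 in MEC1 mice and 10.69, 11.23 and 11.05 in control mice at 31 d. At 21 d it was 6.39, 7.41 and 9.61 in MEC1 mice and 9.64, 10.86 and 11.17 in control mice, so the MEC1 mice had the same order as in the mitotic median. In the MEC1 mice of 31 d the order differed, since replicate 3 had the lowest mitotic median and the highest erythroid level. In the same arrays the medians of the tested clusters were 5.15, 5.16 and 5.26, and the medians of all clusters were 4.13, 4.18 and 4.40. The erythroid factors Klf1 and Gata1 averaged 4.96 ± 0.194 and 4.79 ± 0.121 in MEC1 mice and 8.93 ± 0.117 and 5.49 ± 0.111 in control mice at 31 d (SD, n = 3 each).

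Of 10 granulocyte-monocyte progenitor and promyelocyte markers, 7 fell at 31 d (median -1.90) and 0 at 21 d (median 0.02). Their mean level was 10.22, 9.56 and 8.46 in MEC1 mice and 11.28, 10.77 and 10.80 in control mice at 31 d, which is the order of the mitotic medians among the MEC1 mice. Basophil and mast cell markers had the same order (9.70, 9.13 and 8.31). Replicate 3 was also the lowest MEC1 array for monocyte and macrophage markers (10.21, 10.41 and 9.06) and for neutrophil markers (12.54, 12.70 and 10.47). It was the highest for erythroid and B cell markers. All 5 basophil and mast cell markers fell at 31 d (median -1.69). Of the labelled cells' own markers, those of monocytes and macrophages, 8 of 11 fell at 31 d (median -1.51, 1 rose). At 21 d 2 of these 11 fell and 0 rose (median -0.99). Of 10 neutrophil markers 3 fell at 31 d (median -0.26), and of 5 tested megakaryocyte markers 1, beside 21.1% of all tested clusters. B cell markers rose for 3 of 5 tested at 31 d (median 0.78) and 2 of 5 at 21 d, where Cd79a, Ms4a1 and Ebf1, 3 of the 6 measured, lay below the array median in every array of both control groups, and Ms4a1 also in those of MEC1 mice at 21 d. Among T and natural killer cell markers 3 of 8 were tested, of which 1 rose and 1 fell at 31 d. The part of any of these cell types, or of the hybridisation-control level, in the fall of the mitotic genes was not tested.

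**Figure D4:**
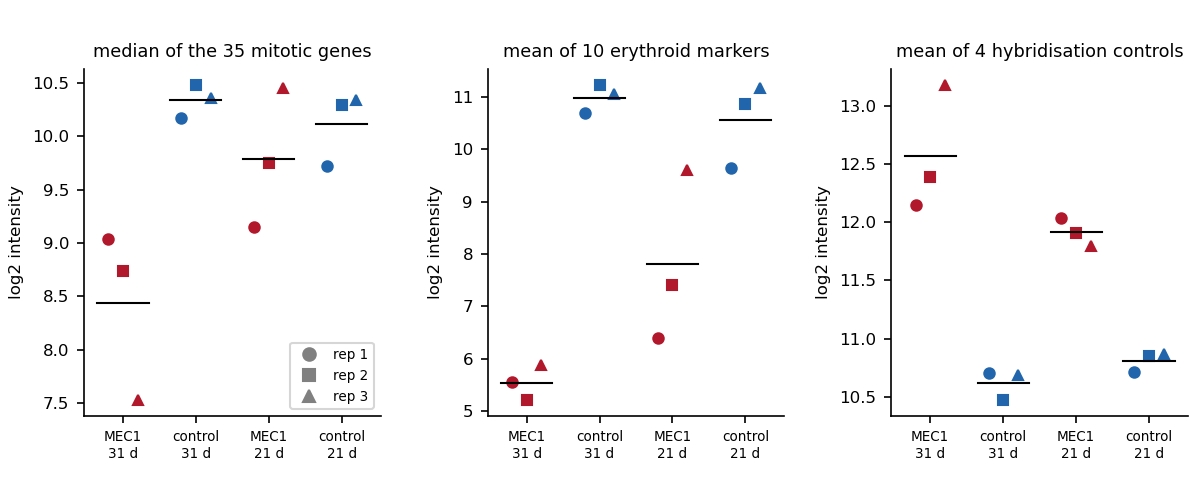
Median log2 intensity of the 35 mitotic genes (left), mean of 10 erythroid markers (middle) and mean of 4 hybridisation controls (right) in each array, with MEC1 mice in red, control mice in blue, replicates by symbol and group means as bars. At 31 d all MEC1 arrays lie below the controls on the left and in the middle and above them on the right; at 21 d the left panel's groups overlap.

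Scaling moved the size of the fall at 31 d. When each array was centred on its own median, all 35 genes fell with a median of -2.28, while the median over all tested clusters became -0.39 and their calls became 2785 higher and 13739 lower, instead of 8430 higher and 7867 lower. Quantile normalization gave 24 falls and a median of -1.29, with 15.1% of all tested clusters fallen. When MEC1 31 d replicate 3 was also left out it gave 15 falls with a median of -1.01, and 3384 of 37240 tested clusters fell. Under a minimum change of 1.5-fold 10 genes passed, where 1792 of these clusters fell. On percentile ranks within the array 10 genes passed, where 4560 clusters fell. When the level of the hybridisation controls entered the fit as a covariate, 0 genes passed and 31 of the 35 changes were positive (median 0.86). In that fit 7 of all tested clusters rose and 0 fell. 92.1% of the variance of that covariate lay between the 4 groups, so that covariate and group cannot be told apart. Aurkb, Cdk1, Cenpa, Cenpe, Cenpf, Kif15, Kif22 and Kif4 fell under all 25 other settings.

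**Figure D5:**
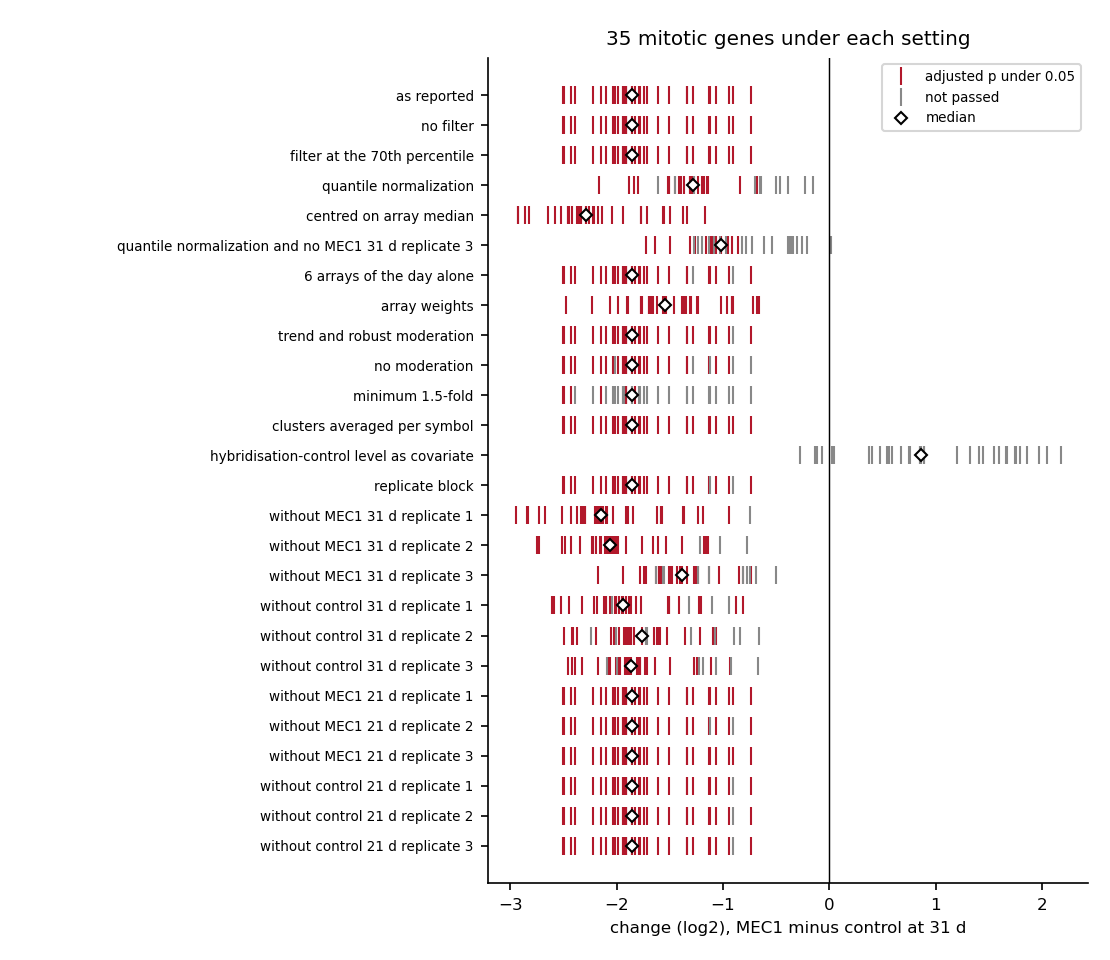
Change of the 35 mitotic genes at 31 d (log2, horizontal axis, 1 tick per gene; red where the adjusted p was under 0.05) and their median (diamond) under each setting (rows); percentile ranks, which are not log2 values, are not drawn. Medians lie between -2.28 and -1.01 in every row except the hybridisation covariate, where the median is 0.86 and no gene passed.

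Other genes of the division machinery changed in the same direction at 31 d. Of 90 tested genes in lists of further mitotic kinases, checkpoint and cohesin genes, centromere genes, spindle genes and condensins, 77 fell and 0 rose (median -1.44), where 21.1% of all tested clusters fell. At 21 d 0 of the 90 passed in limma and 12 had an unadjusted p under 0.05, against 23.4% of all tested clusters. All 8 condensin genes fell (median -1.82), led by Ncapd3, which folds mitotic chromosomes, at -2.54 (SE 0.405, adjusted p = 0.00135). In the other lists 11 of 14 kinases and partners fell (median -1.16), 18 of 20 checkpoint, cohesin and anaphase genes (median -1.46), 21 of 25 centromere and kinetochore genes (median -1.43) and 19 of 23 spindle, motor and midbody genes (median -1.41). The largest falls in these were Pbk, a mitotic kinase, at -2.15, Espl1, the separase that cuts cohesin, at -1.86, the centromere gene Cenpn at -2.37 and Hmmr, which acts in spindle assembly, at -2.93.

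Genes that act upstream of mitosis also changed. Of 17 tested regulators of cell cycle transcription 14 fell at 31 d (median -1.16), with E2f4, an E2F protein of repressor complexes, lowest at -3.42, and Mybl2, which encodes B-Myb, at -1.74. Tfdp2, a partner of E2F proteins, fell on both days, with -1.96 at 31 d (adjusted p = 0.00166, limma) and -1.39 at 21 d (adjusted p = 0.0418). Of 7 G1 cyclins and kinases 6 fell at 31 d (median -1.89), the furthest being Ccne1, cyclin E1, at -3.78 (SE 0.625, adjusted p = 0.00161), which was -1.69 at 21 d (adjusted p = 0.142). Cell cycle inhibitors were mixed: of 11 tested 4 fell and 1 rose at 31 d (median -0.48), where 21.1% of all tested clusters fell and 22.6% rose. Btg2, an antiproliferative gene, changed by -2.61 at 31 d and -1.48 at 21 d (adjusted p = 0.0469, limma), falls that passed on both days. Cdkn1c, the inhibitor p57, rose by 0.40 at 31 d (adjusted p = 0.0366, limma). The array median was itself 0.43 higher in MEC1 mice than in control mice at 31 d. Tfdp2 and Btg2 were the only 2 of 125 tested genes in the other cell cycle lists that fell at 21 d. Over all tested clusters 2.51% fell on that day.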

How the data were processed

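RNA of bone marrow monocytes and macrophages from 12 mice was measured on 12 mouse transcriptome arrays, 1 per mouse, and their number limits the precision. The deposited values were log2 intensities per transcript cluster, made by the authors with Affymetrix Expression Console and RMA, per the submitters' processing notes, with versions not given in the sources used here. The log2 scale was read from the values. Of 72688 features 6732 control features were left out. Symbols came from the platform table, deduplicated and updated through RefSeq (1152 symbols): 31277 clusters had 1 symbol, 1473 several and 33206 none. Clusters above their array's median in at least 3 arrays were tested (37240). limma 3.58.1 (R 4.3.3) fitted 4 group means with empirical Bayes moderation, and Benjamini-Hochberg adjustment of the two-sided p-values ran over these clusters with a threshold of 0.05. The fit was tested on simulated data with independent normal noise. Those data had the same spread in every group and no array-wide shifts, unlike the arrays. Genes named with values in every array were, in each role group of 6 or more, those of largest and smallest change at 31 d and of highest mean over the 12 arrays, and both genes of the smallest group; of other cell cycle lists, the genes with the largest rise and fall that passed at 31 d. The 21 d values of Birc5, and the naming of Klf1, Gata1, Mybl2, Tfdp2 and the other genes of the 35, are outside that rule and were chosen after values were seen. Where RefSeq gave a gene several promoter windows (Ect2 and Prc1), the first was used. The genes and lists were chosen with earlier results of these data known. Replicates were separate mice by number. The same replicate numbers appear in each group but name different mice, so the model had no block. Deviations from the group means of same-numbered arrays correlated at -0.01, 0.16 and 0.02 at 31 d. At 21 d they correlated at 0.36, -0.17 and 0.42, and whether same-numbered arrays of that day shared a source of variation was not tested. Alternatives were other filters, scalings, moderation, weights, a covariate, a replicate block and leaving out each array.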

Additional observations from a re-analysis of the deposited data

How the results depend on the processing

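At 31 d the number of genes that fell was 33 to 35 of 35 with no filter or a stricter one, centring, array weights, averaging of clusters, trend and robust moderation, the 6 arrays of the day alone and the replicate block. With the replicate block 33 fell at 31 d, Ndc80 and Spc25 being lost, and it changed no other call on the 35 genes. The count was 30 without moderation, 24 under quantile normalization (median -1.29), 15 when MEC1 31 d replicate 3 was also left out (median -1.01, with Ndc80 at 0.02), 10 with a 1.5-fold minimum, 10 on percentile ranks and 0 with the hybridisation covariate (median 0.86). Of 37240 tested clusters, those fallen numbered 6935 without moderation, 5620 under quantile normalization and 3384 when replicate 3 was also left out. They numbered 1792 with the 1.5-fold minimum, 4560 on percentile ranks and 0 with the covariate. At 21 d 0 of the 35 genes fell under each of these settings except array weights, with 16, and the covariate turned the median to 1.23. For the difference between the days, the median was -0.85 under quantile normalization without MEC1 31 d replicate 3 and -0.21 with the covariate, and array weights called 6. Among MEC1 mice 31 d against 21 d, these medians were -0.59 and -0.32, quantile normalization called 1 and array weights 22. Against clusters of similar level, the covariate left 10 genes below at 31 d (median difference 0.29) and 1 at 21 d (0.65). The 31 d changes that the covariate turned positive, none of which passed, were Ccna2 0.0268, Melk 0.0396, Cenpe 0.37, Kif4 0.40, Birc5 0.48, Tpx2 0.54, Racgap1 0.56, Kif15 0.59, Ccnb2 0.68, Spc25 0.75, Plk1 0.76, Aurka 0.85, Cenpa 0.85, Aurkb 0.86, Ube2c 0.89, Nuf2 0.89, Bub1b 1.20, Cdk1 1.33, Kif11 1.40, Anln 1.44, Ect2 1.54, Nusap1 1.59, Mad2l1 1.66, Top2a 1.67, Ndc80 1.74, Prc1 1.76, Bub1 1.79, Cdc20 1.86, Mki67 1.97, Kif23 2.05, Ttk 2.17. The causes of these shifts were not tested.

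Leaving out each array in turn gave 25 to 35 falls at 31 d (medians -2.15 to -1.39), with 25 without MEC1 31 d replicate 3, 26 without control 31 d replicate 2 and 28 without control 31 d replicate 3. Of 37240 tested clusters, 5371, 5301 and 6003 fell in these fits. The same 25 genes fell in all 12 fits. At 21 d 0 of the 35 genes fell in each of the 12 (medians -0.68 to -0.06). The medians were -1.69 to -0.98 for the difference between the days, -1.48 to -0.80 for MEC1 mice and 0.03 to 0.45 for control mice, with 0 called. Genes below clusters of similar level numbered 33 to 34 at 31 d (median differences -0.93 to -0.68) and 14 to 24 at 21 d (-0.23 to 0.12).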
